A study of Homo sapiens with 6 samples.

Results

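Aminoacyl-tRNA synthetases are the enzymes that join each amino acid to its tRNA, and 35 of their genes were examined in an enzalutamide-resistant human prostate cancer line, C4-2B-ENZR (enzalutamide blocks the androgen receptor). The genes were taken by symbol from a list of 19 cytosolic and 16 mitochondrial synthetases, and all 35 were matched among the 57820 genes of the count files. The control group was transfected with a negative-control siRNA and the other group with an siRNA against RUVBL1, an AAA+ ATPase that acts with RUVBL2 in chromatin remodelling and in the assembly of protein complexes. Each group had 3 RNA-seq libraries of total RNA, numbered 1 to 3, from this 1 cell line. Whether replicates came from separate cultures is not stated in the labels. The p-values therefore reflect spread among these libraries alone, and that spread may be technical.

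A synthetase first activates its amino acid with ATP and then transfers it to the end of the matching tRNA, which a translation elongation factor carries to the ribosome. Cytosolic enzymes charge the tRNAs of cytosolic translation, while a separate set of nuclear genes, most with the suffix 2, encodes enzymes that are imported to charge the tRNAs of mitochondria. The enzymes fall into class I and class II, which have unrelated catalytic folds. KARS1 and GARS1 encode both the cytosolic and the mitochondrial enzyme for lysine and glycine, and EPRS1 encodes a fused enzyme for glutamate and proline with a domain of each class. Uncharged tRNA activates the kinase GCN2, which leads to translation of the transcription factor ATF4, and several cytosolic synthetase genes are known targets of ATF4.

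ATF4 binds with C/EBP proteins to a composite element of the form TGATGNAA. This motif was searched on both strands of RefSeq start regions (GRCh38.p14, 250 bases before to 50 after a start), which were found for 30 of the 35 genes and not for LARS1, VARS1, YARS1, AARS2 and VARS2. It lay in the start region of 7 of 16 matched cytosolic genes and 1 of 14 matched mitochondrial genes, and in that of 4.46% of all 27305 genes in the table. The matches are shown because the genes that hold them include 5 of the 7 matched cytosolic genes that rose after RUVBL1 siRNA. A gene rose or fell where its edgeR adjusted p was under 0.05. YARS1 also rose but had no start region. Each stretch has 30 bases and is written on the strand of its gene, 5′ to 3′, with the motif or its reverse complement in capitals, and these GRCh38.p14 positions were not used with the count files, whose build no source used here gives.
GARS1 (rose), chr7:30594834-30594863, plus strand: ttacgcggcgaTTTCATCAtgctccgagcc
AARS1 (rose), chr16:70289675-70289704, minus strand: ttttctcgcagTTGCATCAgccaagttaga
CARS1 (rose), chr11:3057407-3057436, minus strand: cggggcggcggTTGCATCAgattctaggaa
NARS1 (rose), chr18:57621804-57621833, minus strand: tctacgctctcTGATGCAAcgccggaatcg
IARS1 (rose), chr9:92293692-92293721, minus strand: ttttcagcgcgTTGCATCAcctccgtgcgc
TARS1 (not called), chr5:33440956-33440985, plus strand: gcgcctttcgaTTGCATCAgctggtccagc
MARS1 (fell), chr12:57488053-57488082, plus strand: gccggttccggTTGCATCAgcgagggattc
YARS2 (fell), chr12:32756076-32756105, minus strand: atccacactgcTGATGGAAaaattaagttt

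The motif began 33 bases before the start in GARS1, 187 before in AARS1, 13 before in IARS1, 4 before in MARS1, 2 before in CARS1 and 197 before in YARS2, and 2 bases after the start in TARS1 and 14 after in NARS1. Of the 8 matched cytosolic genes that fell, MARS1 alone held it. In the list of the ATF4 response outside the synthetases, where 29 of 30 genes rose, 6 of 24 matched genes held it. Most matched genes of that list thus had no match in the window searched. Whether the motif goes with the direction of change was not tested. The E-box CACGTG, which MYC and MAX bind, was in the start region of 1 of 16 matched cytosolic genes (IARS1) and 3 of 14 mitochondrial genes (CARS2, EARS2 and MARS2), against 8.77% of all genes. A match is a description of letters and does not show that a factor was bound.

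Library totals ran from 18985500 to 36054473 counts, and normalized counts are counts brought to a common effective library size. RUVBL1 (ENSG00000175792.7), the target of the siRNA, had 4681, 4654 and 4758 normalized counts in controls and 2725, 2618 and 2709.7 after RUVBL1 siRNA, or 57.1% of the control mean. The luminal prostate markers KLK3, KLK2, HOXB13, FOLH1, TMPRSS2, STEAP2, KRT8, KRT18 and EPCAM were all tested, and 6 of the 9 fell (KRT8 by 0.49 and STEAP2 by 0.44 on the log2 scale). Of all genes tested, 23.1% fell. Among genes with a mean of at least 2000 normalized counts, a range that holds these markers other than KLK2, 50.1% fell. Their summed level was 4907 to 5012 CPM (the usual depth-scaled count, here over the effective library size) in controls and 4005 to 4149 after RUVBL1 siRNA. Stromal, endothelial and immune markers summed to 24.7 to 27.1 CPM in controls and 19.2 to 21.0 after RUVBL1 siRNA, and of the 12 matched markers COL1A2, DCN, LUM, CD3E and MS4A1 were at 0 on average. Of the 4 tested, CD68, a macrophage marker, fell (log2 -0.96, edgeR adjusted p = 8.71e-06) and COL1A1, PDGFRB and VWF were not called. Without CD68 the sums overlapped, at 13.3 to 14.4 CPM in controls and 13.4 to 14.8 after RUVBL1 siRNA. The part of these markers in the results was not tested. Both replicate 1 libraries listed 542 genes at 0 that had at least 20 counts in each other library, and no synthetase was among them.

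Every synthetase was counted well enough to be tested. The lowest count in any library was 85, for RARS2, and no cytosolic gene had fewer than 1820. RPKM values (reads scaled by transcript length and library size), computed with the length of each gene's principal transcripts in GENCODE 29, allow levels to be compared between genes. In the control libraries they ran from 30.2 ± 0.761 (SD, n = 3) for WARS1, the tryptophan enzyme, to 142 ± 1.35 for NARS1, the asparagine enzyme, among cytosolic genes. AARS1 (128 ± 3.79 RPKM) and KARS1 (127 ± 1.85 RPKM) came next. Mitochondrial genes ran from 3.04 ± 0.140 RPKM for RARS2, the arginine enzyme, to 66.4 ± 0.409 for IARS2, the isoleucine enzyme. Apart from IARS2 and CARS2 (31.9 ± 0.886 RPKM), each mitochondrial gene lay below every cytosolic gene.

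**Figure D1:**
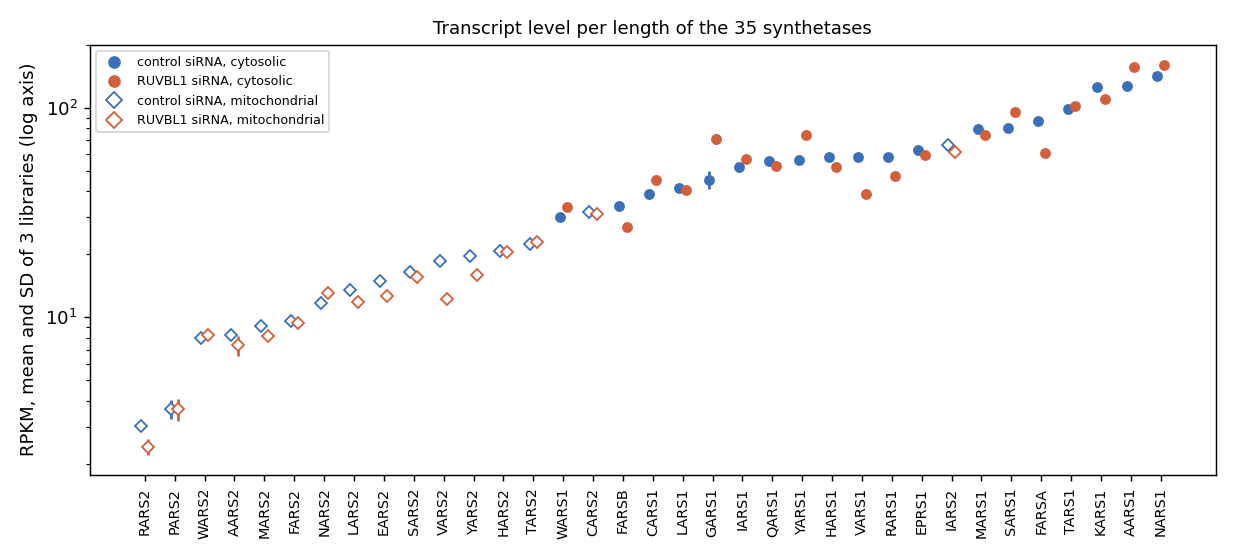
Transcript levels of the 35 synthetases in RPKM on a log axis, ordered by the control mean, with the mean and SD of the 3 libraries in each group. Filled circles are cytosolic genes and open diamonds mitochondrial genes. Control values run from 3.04 for RARS2 to 142 for NARS1, and IARS2 (66.4) and CARS2 (31.9) are the mitochondrial genes that lie among the cytosolic ones.

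After RUVBL1 siRNA, the synthetase genes moved in both directions and by small amounts. Of the 35 genes, 9 rose and 16 fell at an edgeR adjusted p under 0.05, and the median absolute log2 fold change was 0.16, against 0.19 over all 16006 genes tested. Over all genes, 42.2% were called, 19.1% higher and 23.1% lower. The groups did not overlap for 26 of the 35 synthetases, 10 higher and 16 lower (28.6% and 45.7%), and for 52.6% of all genes, 25.3% higher and 27.4% lower. The cytosolic genes divided into 8 that rose, 9 that fell and 2 that were not called, with a median log2 fold change of -0.02. Of the mitochondrial genes 1 rose, 7 fell and 8 were not called, with a median of -0.10, against 0.01 over all genes. Among the 2710 genes with a mean of at least 2000 normalized counts, the range in which all cytosolic synthetases lie, 73.9% were called, 23.8% higher and 50.1% lower. The 47.4% of cytosolic genes that fell is near that share, and the 42.1% that rose is above it. In a fit limited to genes with at least 50 counts in 3 libraries, 25.4% were higher and 27.6% lower, while 6.25% of mitochondrial genes rose and 43.8% fell. The share that fell was larger among more counted genes, so this background is not matched to the depth of the mitochondrial genes. Their 43.8% lies between its 27.6% and the 50.1% of genes with at least 2000.

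The counts depended on how libraries were scaled. These calls used TMM factors (trimmed mean of M-values). Scaling by library totals alone raised the log2 fold change of the median gene by 0.10 and gave 31.1% of all genes higher and 14.4% lower. The calls that were higher made up 68.4% of all calls with that scaling and 45.3% with TMM. Of the cytosolic genes 10 then rose and 5 fell, and of the mitochondrial genes 4 rose and 3 fell. The 8 cytosolic rises, the falls of VARS1, FARSA, FARSB, RARS1 and KARS1, the rise of NARS2 and the falls of VARS2, YARS2 and EARS2 were called with both scalings. Without the replicate 1 libraries 8 cytosolic genes rose and 9 fell, and 1 mitochondrial gene rose and 8 fell. Because bulk RNA was measured, fewer cells and less RNA per cell cannot be told apart.

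**Figure D2:**
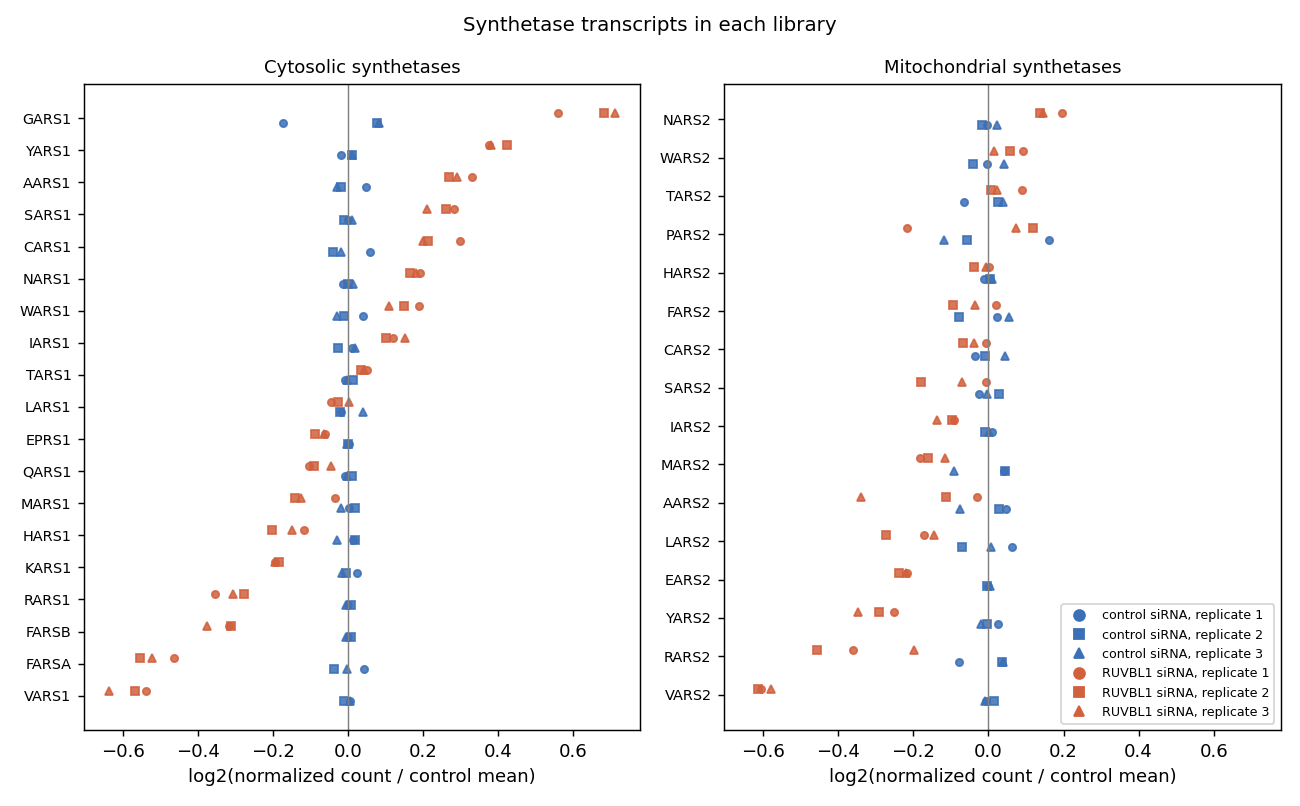
Each point is 1 library, placed at the log2 of its normalized count over the control mean of that gene, with control libraries in blue, RUVBL1 siRNA libraries in orange and the marker shape giving the replicate number. GARS1 and YARS1 lie highest among cytosolic genes and VARS1 and FARSA lowest, VARS2 is the lowest mitochondrial gene, and the 2 groups do not overlap for 26 of the 35 genes.

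The cytosolic gene that rose most was GARS1, the glycine enzyme (ENSG00000106105.9). It had 2798, 3327 and 3344 normalized counts in controls and 4654, 5066 and 5166 after RUVBL1 siRNA. Replicate 1 was the lowest library of both groups, and the groups did not overlap. The change was 0.65 in log2 (SE 0.0917, edgeR adjusted p = 0.00541). With the replicate number as a block it was 0.65 with an SE of 0.0241, and without both replicate 1 libraries it was 0.62.

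YARS1, the tyrosine enzyme (ENSG00000134684.6), had 4755, 4852 and 4858 normalized counts in controls and 6252, 6459.6 and 6274 after RUVBL1 siRNA. Its log2 fold change of 0.39 (SE 0.0197, edgeR adjusted p = 1.38e-08) was more than any difference among libraries of a group. AARS1, the alanine enzyme and the most counted member (ENSG00000090861.11), had 12095, 11538 and 11456 normalized counts in controls and 14698, 14088 and 14294 after RUVBL1 siRNA. It rose to 123% of the control mean (log2 0.30, SE 0.0239, edgeR adjusted p = 9.32e-07). SARS1, the serine enzyme (ENSG00000031698.8), had 3926, 3897 and 3951 normalized counts in controls against 4768, 4697 and 4537 (log2 0.25, SE 0.0238, edgeR adjusted p = 3.53e-06). In each of these 3 genes every RUVBL1 siRNA library lay above every control library. The other cytosolic genes that rose were CARS1, the cysteine enzyme (log2 0.24), NARS1 (0.18), WARS1 (0.15) and IARS1, the isoleucine enzyme (0.12), with edgeR adjusted p-values from 3.74e-06 to 0.00239.

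The cytosolic gene that fell most was VARS1, the valine enzyme (ENSG00000204394.8). It had 6652, 6575 and 6655 normalized counts in controls and 4559, 4472 and 4263 after RUVBL1 siRNA, or 66.9% of the control mean. In log2 this was -0.58 (SE 0.0238, edgeR adjusted p = 2.99e-09). The gap between the groups was far wider than the range within either.

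FARSA and FARSB encode the α and β subunits of the cytosolic phenylalanine enzyme, and both fell. FARSA (ENSG00000179115.6) had 4275, 4042 and 4139.7 normalized counts in controls and 3011, 2829 and 2888 after RUVBL1 siRNA (log2 -0.51, SE 0.0307, edgeR adjusted p = 6.3e-08). FARSB (ENSG00000116120.8) had 3031, 3045 and 3015 in controls and 2430.3, 2441 and 2333 after RUVBL1 siRNA (log2 -0.34, SE 0.0287, edgeR adjusted p = 1.42e-06). The 2 subunits thus stood at 70.1% and 79.3% of their control means. RARS1, the arginine enzyme (ENSG00000113643.4), had 3306, 3326 and 3297 normalized counts in controls and 2587, 2729.5 and 2676 after RUVBL1 siRNA (log2 -0.31, SE 0.0284, edgeR adjusted p = 2.4e-06). KARS1, the lysine enzyme, had 87.5% of its control mean (edgeR adjusted p = 2.19e-06), and VARS1, FARSA, FARSB, RARS1 and KARS1 fell with both scalings.

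Smaller falls were called for HARS1, the histidine enzyme (log2 -0.16), MARS1, the methionine enzyme (-0.10), QARS1, the glutamine enzyme (-0.08), and EPRS1 (-0.07). None of these 4 calls held when libraries were scaled by totals alone, where HARS1 had -0.06, MARS1 -0.0014, QARS1 0.02 and EPRS1 0.03. The call of MARS1 (edgeR adjusted p = 0.0112) also failed when RUVBL1 siRNA replicate 3 was left out (adjusted p = 0.0635), and that of QARS1 (0.0147) when control replicate 2 was (0.0507). MARS1 shares exon sequence on the other strand with DDIT3, the gene of the transcription factor CHOP, which rose to 259.5% of its control mean. No source used here gives the strand setting of the counting, and reads of the pair may not have been told apart. LARS1, the leucine enzyme, was not called (log2 -0.02, 95% interval -0.07 to 0.03), and neither was TARS1, the threonine enzyme (0.04, 95% interval 0.01 to 0.08, edgeR adjusted p = 0.057). Scaled by totals alone, both had adjusted p-values under the threshold with log2 fold changes of 0.08 and 0.14. TARS1 was also called higher with DESeq2 (adjusted p = 0.0365), limma-voom (0.0445), DESeq2 size factors in edgeR (0.0339) and the minimum of 50 counts (0.0103), each of which gave 9 cytosolic genes that rose. Over the alternatives its adjusted p ran from 3.92e-05 to 0.621.

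**Figure D3:**
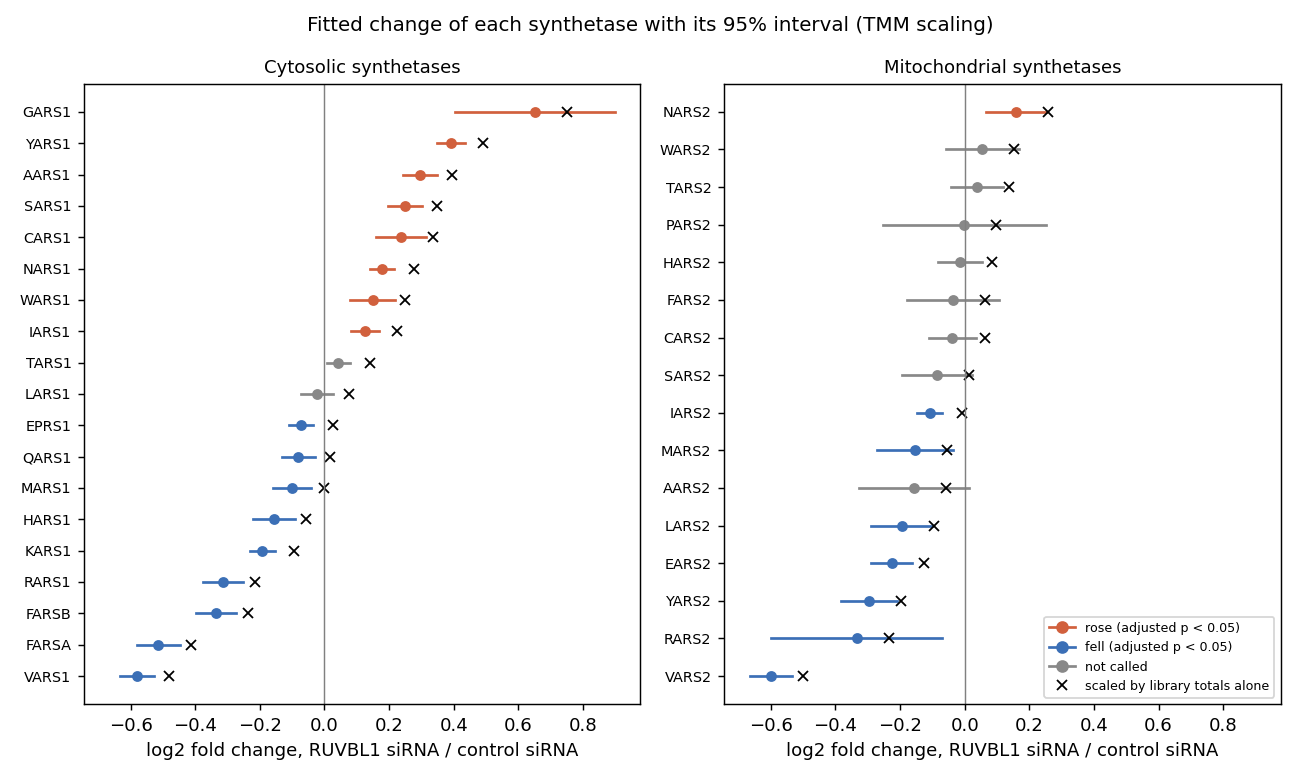
Log2 fold change of each synthetase after RUVBL1 siRNA with its 95% interval from the edgeR fit with TMM factors, coloured by call, and the value with libraries scaled by totals alone as a cross. The crosses lie about 0.10 to the right of every point, which moves EPRS1, QARS1, LARS1 and 5 mitochondrial genes across 0 while GARS1 (0.65), VARS1 (-0.58) and VARS2 (-0.60) keep their side.

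Several cytosolic synthetases are held in the multisynthetase complex, a large assembly with the scaffold proteins AIMP1, AIMP2 and EEF1E1 (AIMP3). Of the 7 listed enzymes of the complex, EPRS1, KARS1, MARS1, QARS1 and RARS1 fell, IARS1 rose and LARS1 was not called, beside 50.1% lower and 23.8% higher among genes of at least 2000 normalized counts. All 3 scaffold genes fell. AIMP2 had 2676, 2564 and 2590.2 normalized counts in controls and 1893, 1789.6 and 1931 after RUVBL1 siRNA (log2 -0.48, SE 0.0351, edgeR adjusted p = 3.55e-07). AIMP1 fell by 0.21 and EEF1E1 by 0.23, and the 3 scaffold calls held with libraries scaled by totals alone (log2 -0.38 for AIMP2, -0.11 for AIMP1 and -0.13 for EEF1E1). With that scaling 2 of the 7 enzymes of the complex rose and 2 fell. Of the 12 cytosolic enzymes outside the complex, 7 rose and 4 fell. The cytosolic class I and class II enzymes each had 4 genes that rose and 4 that fell.

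Among the mitochondrial genes, VARS2, the valine enzyme (ENSG00000137411.12), fell most. It had 1984, 2015 and 1981 normalized counts in controls and 1310.0, 1302 and 1333 after RUVBL1 siRNA. The log2 fold change of -0.60 (SE 0.0298, edgeR adjusted p = 1.28e-08) placed it at 66.0% of the control mean, beside the 66.9% of VARS1. VARS2 shares exon sequence with GTF2H4 on the same strand, so some of its reads may have been assigned between the 2 genes.

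YARS2, the tyrosine enzyme (ENSG00000139131.8), had 1116, 1095 and 1082 normalized counts in controls and 923, 897 and 863 after RUVBL1 siRNA (log2 -0.30, SE 0.0390, edgeR adjusted p = 5.75e-05). EARS2, the glutamate enzyme (ENSG00000103356.11), had 1526, 1524 and 1531 in controls and 1314, 1294 and 1311 (log2 -0.23, SE 0.0293, edgeR adjusted p = 5.12e-05). LARS2, the leucine enzyme (ENSG00000011376.5), had 1576, 1436 and 1518 in controls and 1339, 1250.0 and 1366 (log2 -0.20, SE 0.0431, edgeR adjusted p = 0.00286). The groups did not overlap in any of these 3 genes, but the LARS2 call was lost with libraries scaled by totals alone (log2 -0.10, adjusted p = 0.107). IARS2 (ENSG00000067704.8), the most counted mitochondrial gene, had 6265, 6189 and 6233 in controls and 5847, 5828 and 5661 (log2 -0.11, edgeR adjusted p = 0.000389), and scaled by totals alone it was at -0.0090 and not called.

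The least firm calls were those of the low-count genes. MARS2, the methionine enzyme (ENSG00000247626.3), had 745, 746 and 679 normalized counts in controls and 637, 647 and 668 after RUVBL1 siRNA (log2 -0.15, edgeR adjusted p = 0.0378). RARS2 (ENSG00000146282.13) had 138, 149.6 and 149.8 in controls and 114, 106 and 127 (log2 -0.33, SE 0.121, edgeR adjusted p = 0.0424). For both, the groups did not overlap by a narrow margin. The MARS2 call was lost in DESeq2 (adjusted p = 0.0718), in limma-voom (0.0545) and without any single library other than control replicate 3 (0.0512 to 0.136). The RARS2 call was lost in DESeq2 (0.145), without control replicate 2 (0.12) or 3 (0.112) and without RUVBL1 siRNA replicate 1 (0.0822) or 2 (0.14). Both were also lost with libraries scaled by totals alone. The MARS2 call was lost without both replicate 1 libraries as well, and the RARS2 call with no low-count filter.

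NARS2, the asparagine enzyme (ENSG00000137513.5), was the mitochondrial gene that rose. It had 774, 766 and 788 normalized counts in controls and 889, 853 and 857 after RUVBL1 siRNA (log2 0.16, SE 0.0429, edgeR adjusted p = 0.00972), and every RUVBL1 siRNA library lay above every control library. The 8 mitochondrial genes that were not called had log2 fold changes from -0.16 for AARS2 to 0.05 for WARS2. AARS2, the alanine enzyme (95% interval -0.33 to 0.01), was called lower in 4 of 14 alternatives. It was called with the replicate block (log2 -0.16, adjusted p = 0.00763) and without both replicate 1 libraries (-0.20, adjusted p = 0.0153). It was also called with no low-count filter and without RUVBL1 siRNA replicate 1 alone. CARS2 (-0.04), FARS2 (-0.04), HARS2 (-0.02), SARS2 (-0.08), TARS2 (0.04) and WARS2 had 95% intervals that lay between -0.19 and 0.17. PARS2, the proline enzyme, had 252, 216 and 207 normalized counts in controls and 194, 244 and 237 after RUVBL1 siRNA, with a 95% interval of -0.25 to 0.25 that leaves changes of that size undetectable at its depth.

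All 7 of the listed mitochondrial genes that fell encode class I enzymes, of which 9 are listed, while of the 7 class II enzymes 1 rose and 0 fell. KARS1 and GARS1, which encode class II enzymes of both compartments, are counted as cytosolic and are not among these. KARS1 fell (log2 -0.19) and GARS1 rose (0.65). In the fit with at least 50 counts in 3 libraries 27.6% of all genes were lower and 25.4% higher. Among genes with a mean of at least 2000 normalized counts 50.1% were lower and 23.8% higher, and neither background is matched to the depth of these genes. The difference between the classes was not tested. With libraries scaled by totals alone 3 class I genes fell and 1 rose, and 0 class II genes fell and 3 rose. Without both replicate 1 libraries 6 class I and 2 class II genes fell. With the replicate number as a block 7 class I genes and 1 class II gene fell, and with no low-count filter 6 and 1. Without RUVBL1 siRNA replicate 1 the numbers were 5 and 1. In each other alternative 0 class II genes fell.

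The count ratio of the cytosolic to the mitochondrial gene for the same amino acid does not depend on library scaling, and it was computed in each library for 14 amino acids. The ratio rose without overlap between the groups for 7 amino acids, fell for 2 and overlapped for 5. The same count for ratios of other genes was not computed; of single genes, 52.6% did not overlap. The largest rise was for tyrosine: YARS1 to YARS2 was 4.26, 4.43 and 4.49 in controls and 6.78, 7.20 and 7.27 after RUVBL1 siRNA, a 1.61-fold change. For alanine, AARS1 to AARS2 was 14.1, 13.6 and 14.5 in controls and 18.0, 18.3 and 21.7 after RUVBL1 siRNA. For phenylalanine, FARSA to FARS2 fell from 9.93, 10.1 and 9.40 to 7.003, 7.12 and 6.98, and for histidine, HARS1 to HARS2 fell from 2.54, 2.51 and 2.43 to 2.30, 2.22 and 2.26. For valine, VARS1 to VARS2 was 3.35, 3.26 and 3.36 in controls and 3.48, 3.44 and 3.20 after RUVBL1 siRNA, so that the ratio overlapped although both genes fell. Each of the 9 separated ratios had an exact two-sided permutation p of 0.1, the smallest that 20 assignments of 3 against 3 libraries allow, and 0.156 after Benjamini-Hochberg adjustment over the 14 ratios.

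**Figure D4:**
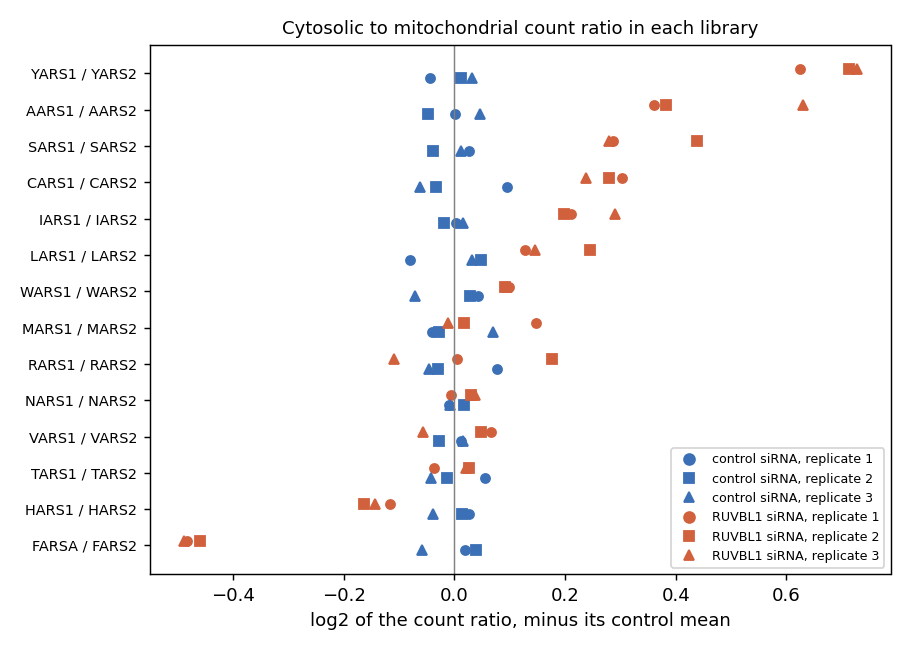
Log2 of the count ratio of the cytosolic to the mitochondrial gene for 14 amino acids, minus its control mean, with 1 point per library. The RUVBL1 siRNA libraries lie to the right of all controls for 7 pairs, YARS1 to YARS2 farthest, and to the left for FARSA to FARS2 and HARS1 to HARS2.

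HARS1 and HARS2 are transcribed in opposite directions from neighbouring starts, and the first was called lower while the second was not called. The 84 bases between the starts (GRCh38.p14, RefSeq), on the plus strand, along which HARS2 is transcribed, are shown because they belong to the start region of both genes. They hold 0 matches to TGATGNAA and 0 to CACGTG.
HARS1 and HARS2, chr5:140691371-140691454: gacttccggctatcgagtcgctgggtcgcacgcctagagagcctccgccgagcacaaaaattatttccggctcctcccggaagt

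The exons of HARS1 and HARS2 overlap on opposite strands in GENCODE 29, so their counts are uncertain where the counting ignored strand. In all, 19 of the 35 genes share exon bases with another gene, 16 with a gene on the other strand and 6 with a gene on the same strand, and 11 have a pseudogene named after them.

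Summed over the 19 cytosolic genes, the level was 4033 to 4052 CPM in controls and 4125 to 4181 after RUVBL1 siRNA. Summed over the 16 mitochondrial genes it was 813 to 818 in controls and 737 to 758 after RUVBL1 siRNA. As a share of the library total, without TMM factors, the cytosolic sum was 0.388% to 0.394% in controls and 0.426% to 0.435% after RUVBL1 siRNA, and the mitochondrial sum was 0.0783% to 0.0796% and 0.0761% to 0.0787%. The cytosolic sums did not overlap on either scale, and the mitochondrial sums overlapped as shares of the total.

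The wider ATF4 response and the genes that control it were read from the same fit. ATF4 rose from 10804, 10597 and 10618 normalized counts to 15324, 14728 and 14772 (log2 0.49, SE 0.0200, edgeR adjusted p = 3.05e-09). Of 30 genes of the ATF4 response outside the synthetases, a list that includes ATF4 itself, 29 rose and 0 fell, beside 19.1% and 23.1% of all genes. The list's median log2 fold change was 0.73. CHAC1, which encodes a glutathione-degrading enzyme, rose by 1.63 on the log2 scale and DDIT3 by 1.38. A rise of this response in these libraries was known before the list was made, so the count is not independent evidence. CBS was the list's gene that was not called (log2 -0.02). The largest rise of a synthetase, 0.65 for GARS1, lay below the median of that list but within its range of -0.02 to 1.63. Of the 19 cytosolic genes 8 rose and 9 fell (42.1% and 47.4%). Among genes with at least 2000 normalized counts, 23.8% rose and 50.1% fell. Whether ATF4 acted on the synthetase genes was not tested.

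Of 16 genes of eIF2 control, which include the kinases that phosphorylate eIF2α and the exchange factor eIF2B, 5 rose and 8 fell, with a median log2 fold change of -0.12, beside 19.1% higher and 23.1% lower over all genes. Several of them, among them GCN1, EIF2S1 and EIF2B5, had at least 2000 normalized counts, a range in which 50.1% fell and 23.8% rose. With libraries scaled by totals alone 6 of the 16 rose and 6 fell. GCN1, which encodes the ribosome-bound activator of GCN2, fell from 6573, 6581 and 6474 normalized counts to 3880.5, 3649.6 and 3633 (log2 -0.81, SE 0.0255, edgeR adjusted p = 3.74e-10). PPP1R15A, which encodes GADD34, a subunit of the eIF2α phosphatase, rose from 106, 118 and 88.6 to 189.6, 153 and 164 (log2 0.69, SE 0.140, edgeR adjusted p = 0.0016). The groups did not overlap for either gene.

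Of 12 synthetase scaffolds and charging partners, 3 rose and 4 fell (median log2 -0.04), beside 19.1% and 23.1% of all genes. The 3 scaffolds of the complex are among those that fell. SEPSECS, which encodes the enzyme that converts the phosphorylated serine on selenocysteine tRNA, rose by a log2 of 0.37. Of 10 genes listed as elongation factors, 2 rose and 8 fell (median log2 -0.12). All but GFM2 had at least 2000 normalized counts, a range in which 50.1% of genes fell and 23.8% rose. With libraries scaled by totals alone 3 of the 10 rose and 5 fell. TUFM and GFM2, both of mitochondrial translation, fell by 0.32 and 0.29. TSFM, a mitochondrial factor that recycles TUFM, rose (log2 0.17, edgeR adjusted p = 0.000428); it is named after its value was seen.

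**Figure D5:**
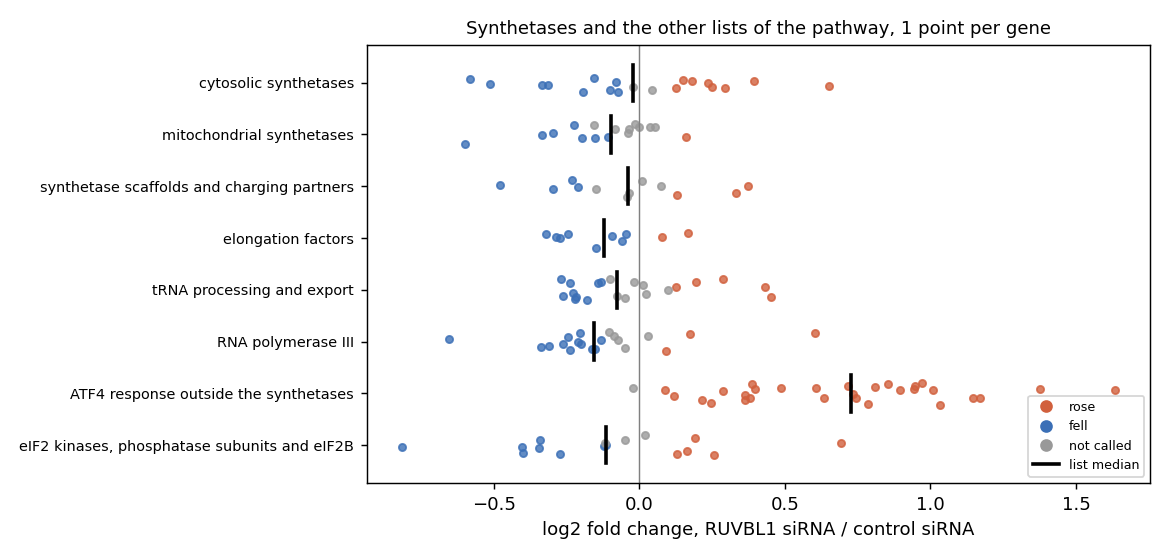
Log2 fold change after RUVBL1 siRNA of every gene of the synthetase lists and of 6 other lists of the pathway, coloured by call, with the list median as a black bar. The ATF4 list has its median at 0.73, while the medians of the cytosolic and mitochondrial synthetases are -0.02 and -0.10.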

How the data were processed

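RNA-seq of total RNA was measured in 6 libraries. The authors deposited 1 column of unscaled estimated counts per library, which were rounded to whole numbers here (totals changed by at most 0.000222%). Bowtie 0.12.2, mm8 and mm9 are listed per the submitters' processing notes; both builds are of mouse, whereas the gene identifiers are human. For the counter, human build, annotation and strand setting, nothing is given in the sources used here. Symbols were matched by stable identifier for 51996 of 57820 genes.

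The main test was that of edgeR 4.0.16 under R 4.3.3 (filterByExpr, TMM factors, robust quasi-likelihood test, two-sided, group as the only term), and p-values were adjusted by Benjamini-Hochberg over 16006 genes, with calls at 0.05. The SE is the log2 fold change over the square root of F. Normalized counts are counts over the effective library size, times the mean effective size of 26348516. RPKM used the median length of the APPRIS principal transcripts of GENCODE 29. Single values were tested by exact permutation. The fit was checked on simulated counts. One marker of the luminal list is not reported here and was left out of its counts and sums. Samples were assigned to groups by their titles, which read control or RUVBL1 knockdown and do not name the siRNA.

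The members and lists were chosen with earlier results of these data known. Values in every library are given for the members with the 8 largest called changes in each compartment, and for each list the largest called changes are named. Alternatives were DESeq2 1.42.0, limma-voom (limma 3.58.1), DESeq2 size factors, library totals alone, no low-count filter, at least 50 counts in 3 libraries, a replicate block, leaving out each library, and leaving out both replicate 1 libraries. The background of genes with at least 2000 normalized counts, the cytosolic to mitochondrial ratios, the motif search and the transcript lengths (first taken over all coding transcripts, which were often fragments) were chosen after seeing the data. Same-numbered libraries deviated together from their group means (correlations over the tested genes of 0.939, 0.819 and 0.823, or 0.423, 0.192 and 0.220 without genes at 0 in replicate 1), which is why the replicate block is given as an alternative; the tests reported as main were unpaired. The pairing rests on the values, and replicates 2 and 3 also correlated across numbers (0.807 and 0.817).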

Additional observations from a re-analysis of the deposited data

How the results depend on the processing

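Scaling by library totals alone had the most effect: 4981 genes rose and 2297 fell, against 3060 and 3695, and 5 cytosolic genes fell while 4 mitochondrial genes rose and 3 fell. It turned the sign of the log2 fold change of EPRS1 (0.027), LARS1 (0.076), QARS1 (0.019), CARS2 (0.062), FARS2 (0.063), HARS2 (0.084) and SARS2 (0.015), a shift that follows from the scaling itself. PARS2, at a log2 fold change near 0, turned sign with DESeq2 (0.013), limma-voom (0.030), DESeq2 size factors (0.0045), library totals alone (0.098), at least 50 counts in 3 libraries (0.012) and the replicate block (0.015) and without replicate 1 of both groups (0.18), and it ran from -0.066 to 0.095 when single libraries were left out. TARS2 turned to -0.017 without replicate 1 of both groups. The cause of the last 2 was not tested. With the replicate block 8 cytosolic genes rose and 9 fell, 1 mitochondrial gene rose and 8 fell, 3743 of all genes rose and 4094 fell, and besides AARS2 no synthetase call changed. Over the 35 synthetases and 14 alternatives, 439 of the values kept direction and call, 22 lost the call, 12 gained it and 17 turned sign. RUVBL1 stayed lower and called in all 14. Depth limits RARS2 and PARS2, with the fewest counts.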

Other observations

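Genes of tRNA synthesis and maturation were read from the same fit. RNA polymerase III transcribes tRNA. Of 20 listed genes of this polymerase, its factors and its repressor MAF1, 3 rose and 12 fell, with a median log2 fold change of -0.16. Over all genes tested the median was 0.01, and 19.1% rose and 23.1% fell. MAF1 was among those that rose (log2 0.18, edgeR adjusted p = 0.00133). GTF3C1, which encodes the largest subunit of the factor TFIIIC that binds inside tRNA genes, fell from 3216, 3124 and 3097 normalized counts to 2069.8, 1996 and 1932 (log2 -0.65, SE 0.0327, edgeR adjusted p = 1.35e-08). POLR3GL, which encodes an alternative to the polymerase subunit POLR3G, rose by a log2 of 0.60, while POLR3G fell by 0.31. With libraries scaled by totals alone 3 of the 20 genes rose and 5 fell.

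Of 21 genes of tRNA processing and export, 5 rose and 9 fell (23.8% and 42.9%, beside 19.1% and 23.1% of all genes), with a median log2 fold change of -0.08. XPOT, which encodes the exporter that carries tRNA out of the nucleus, rose from 6389, 6598 and 6555 normalized counts to 8915, 8653 and 8827 (log2 0.43, SE 0.0194, edgeR adjusted p = 5.63e-09). ELAC1, which encodes a tRNA 3′ end nuclease, rose by a log2 of 0.45. Without control replicate 2, or without RUVBL1 siRNA replicate 2, 3 genes of this list rose, and with libraries scaled by totals alone 7 rose and 5 fell.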
